A study of Mus musculus with 8 samples.

Results

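Egr1, Fos, Dusp4, Dusp6, Spry2, Spry4, Etv4, Etv5, Ier3 and Myc are genes commonly read as transcriptional output of the ERK pathway. The 10 genes were taken by symbol from a count table of 57010 mouse genes, each symbol standing for 1 Ensembl gene, and all 10 passed the filter on low counts. RNA had been sequenced from mouse embryonic stem cells, which are cultured cells of the early embryo, in 4 groups of 2 libraries. Cells labelled Control and cells labelled HSVTK had each received ganciclovir (GANC) or its solvent control DMSO. HSVTK cells carry an inducible reporter through which cells in the 2C-like state, a rare state resembling the 2-cell embryo, make the thymidine kinase of herpes simplex virus. That enzyme turns ganciclovir into a toxic product, and the drug was meant to eliminate those cells. The labels give no dose or duration, and they do not say what Control cells carry, whether a line is 1 clone, or whether the 2 libraries of a group are separate cultures. The p-values therefore measure only the spread between libraries, which may be technical.

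Embryonic stem cells make the growth factor FGF4, whose receptor signals through RAS, RAF and MEK to the kinase ERK. ERK activity moves these cells out of the naive state and towards differentiation, and it switches on genes at several speeds. Immediate early genes such as Egr1 and Fos respond without new protein synthesis, while the ETS factors Etv4 and Etv5 follow sustained FGF signalling. Sprouty proteins (Spry2, Spry4) and dual-specificity phosphatases (Dusp4, Dusp6) are induced by the pathway and act back on it as brakes. The repressor Capicua (CIC) holds several of these genes down until ERK relieves it.

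The depth was 29704460 to 34184475 assigned counts a library, and 17976 genes were tested. All 12 embryonic stem cell markers were tested, with a summed level of 5596 to 6995 CPM (counts scaled to a library of 1e+06 with TMM factors) per library. Markers of other cell types summed to 6.72 to 9.70 CPM (mesoderm and streak), 36.3 to 53.4 (trophectoderm), 126 to 187 (neuroectoderm), 229 to 324 (primitive endoderm) and 240 to 299 (fibroblasts). No marker was at 0 in all libraries. Of the 12 fibroblast markers Vim had 7096 to 9210 counts per library, Thy1 227 to 572, Pdgfrb 51 to 253 and Twist1 52 to 74, while Dcn had 0 to 4 and Lum and Postn 0 to 2. Of the 12 primitive endoderm markers Sparc had 4111 to 6004 counts and Lama1 1063 to 2250. Gata6 had 2 to 69, Gata4 8 to 81, Sox17 2 to 12 and Pdgfra 13 to 72. Under DMSO 5 of the 12 were higher and 0 lower in HSVTK than in Control cells (16.4% and 17.3% of all tested genes). Under GANC 8 were higher and 1 lower (11.1% and 14.9%). The part of these markers in the values below was not tested. Markers of the 2C-like state, which the drug was meant to deplete, summed to 74.1 to 78.9 CPM in the libraries labelled HSVTK GANC and to 29.1 to 37.6 CPM in the other 3 groups. Because those genes moved against the label, every direction below that involves an HSVTK group rests on the labels as given. The libraries labelled HSVTK GANC also had the highest mitochondrial shares, 3.45 and 3.56% against at most 3.17% elsewhere.

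Promoter letters are shown for Fos, Dusp6 and Spry2, 1 gene from each of the early transcription factor, phosphatase and Sprouty classes. Windows were read for 5 members (6 windows, with 2 for Etv5), and of these 5 the 3 shown hold a match to the CIC octamer. RefSeq's table held no entry for Dusp4, Etv4 and Myc. The windows of Egr1 and Spry4 were left out of the reading, so the motifs were not searched in them. The 3 windows shown cover the 250 bases before the annotated start, from RefSeq's table on GRCm38.p6. They overlap no exon in the GENCODE vM21 annotation of that build, which differs from the build in the submitters' processing notes. Fos lies at chr12:85473640-85473889 on the plus strand, Dusp6 at chr10:99262981-99263230 on the plus strand, and Spry2 at chr14:105896820-105897069 on the minus strand. Each is written 5′ to 3′ on the strand of its gene, with motif matches in capitals.
Fos: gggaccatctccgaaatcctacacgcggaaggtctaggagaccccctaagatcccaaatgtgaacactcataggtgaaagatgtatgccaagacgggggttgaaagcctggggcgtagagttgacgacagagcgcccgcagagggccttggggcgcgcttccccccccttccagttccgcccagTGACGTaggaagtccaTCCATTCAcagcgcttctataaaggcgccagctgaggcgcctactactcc
Dusp6: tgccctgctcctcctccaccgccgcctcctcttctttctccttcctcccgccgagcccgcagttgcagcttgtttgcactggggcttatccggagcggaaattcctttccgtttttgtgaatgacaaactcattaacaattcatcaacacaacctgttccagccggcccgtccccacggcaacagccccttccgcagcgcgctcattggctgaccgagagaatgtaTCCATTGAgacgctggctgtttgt
Spry2: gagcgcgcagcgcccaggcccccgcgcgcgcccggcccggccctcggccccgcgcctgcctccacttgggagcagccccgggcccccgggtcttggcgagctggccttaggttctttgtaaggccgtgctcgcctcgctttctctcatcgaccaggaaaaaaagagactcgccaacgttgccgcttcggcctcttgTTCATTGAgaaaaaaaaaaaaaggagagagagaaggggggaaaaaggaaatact
The capitals in Dusp6 and Spry2, and the second run in Fos, match the CIC octamer (TGAATGAA, TGAATGGA, TCAATGAA or TCAATGGA) on the opposite strand. They lie 24 to 17 bases before the start in Dusp6, 54 to 47 bases before it in Spry2 and 50 to 43 bases before it in Fos. The first run in Fos is TGACGT, the core shared by cyclic AMP response elements, 66 to 61 bases before the start. Searched on both strands, the octamer occurs in 3.19% of 32851 promoter windows of this length and TGACGT in 6.47%. The ETS core CCGGAA (12% of windows), the AP-1 site TGANTCA (6.75%) and the CArG box (1.47%) had no match in the windows of Fos, Dusp6, Spry2, Etv5 and Ier3, and Etv5 and Ier3 had no match to any of the motifs searched. Unlike the 3 windows shown, 1 window of Etv5 overlaps an Etv5 exon by up to 149 bases. The other lies inside an Etv5 transcript over all 250 bases, and that of Ier3 overlaps its exon by 29 bases. Sites more than 250 bases before the start were not searched, so the lack of a match holds for these windows only. A match describes these letters only, and nothing about binding was measured.

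Compared per length of transcript, the 10 genes ran from among the most abundant in these cells to nearly silent. Etv5, an ETS factor of the PEA3 family, stood highest with a mean of 107 FPKM over the 8 libraries, above 97.3% of tested genes. Spry4 (45.7 FPKM), its PEA3 relative Etv4 (43.0) and Spry2 (41.7) followed, and their library values overlapped, so that no order among these 3 can be given. Myc, a growth-promoting transcription factor, stood at 27.6 FPKM and Dusp6 at 22.7. The remaining 4 were Egr1 at 7.32 FPKM, Ier3 at 5.63, Dusp4 at 3.46 and Fos at 1.02, the last above only 37.0% of tested genes. Egr1 and Ier3 overlapped across libraries, as did Ier3 and Dusp4 and as did Myc and Dusp6. The other FOS and EGR family members were lower still in these cells: Egr2 had 0 to 10 counts per library and Egr3 0 to 2, and neither was tested.

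**Figure D1:**
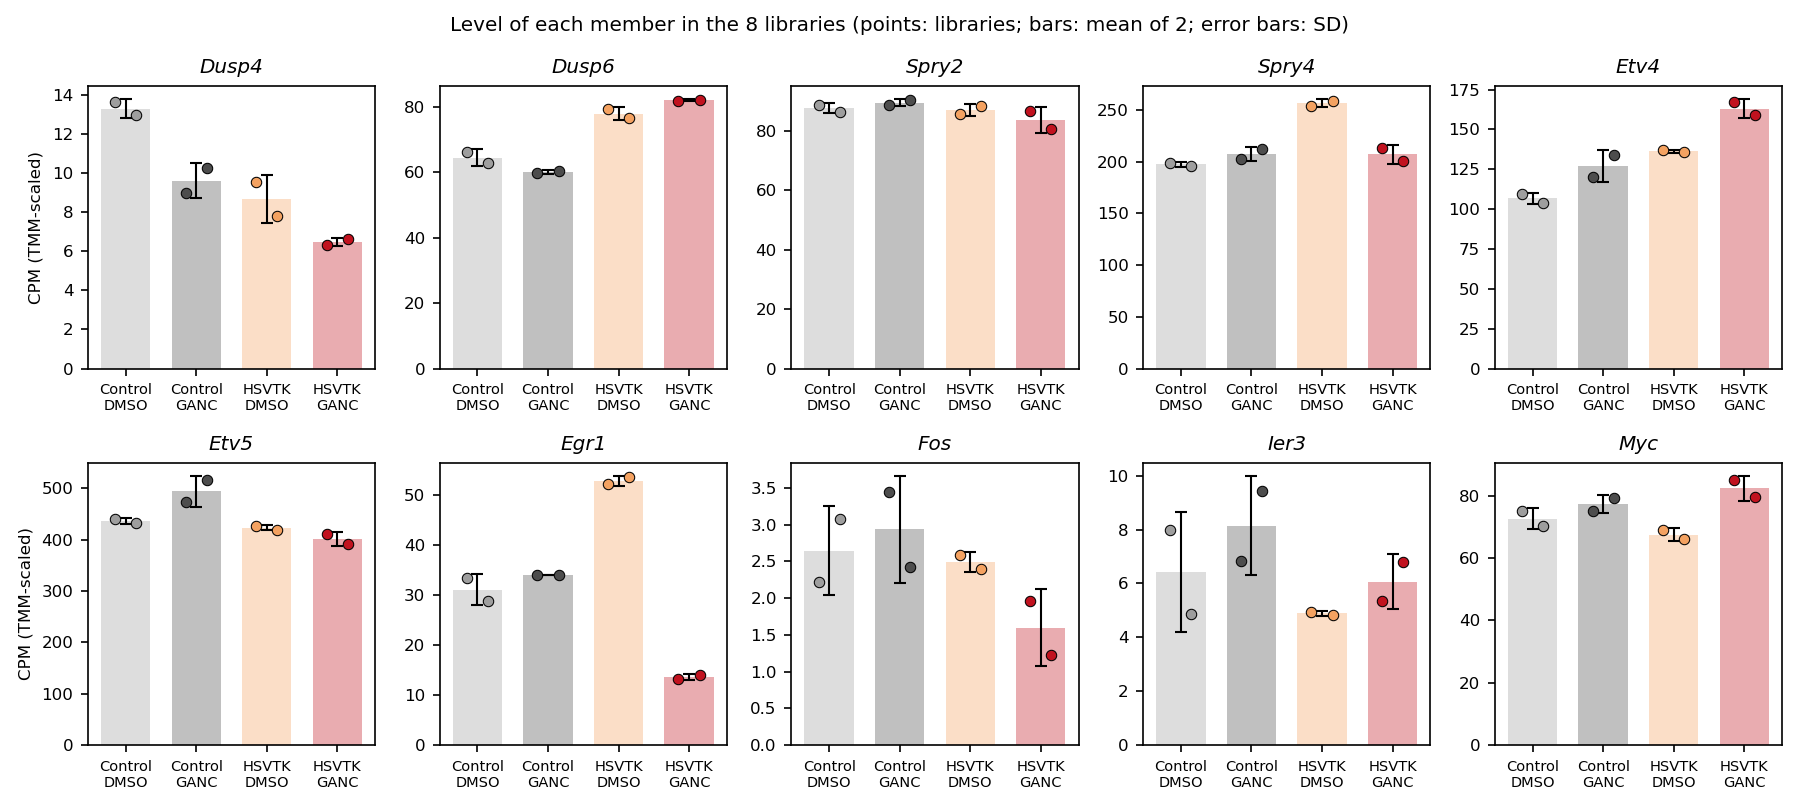
Level of each of the 10 genes in every library, in CPM on a linear axis from 0, with points for libraries, bars for the means of the 4 groups and error bars of 1 SD (n = 2). Egr1 ranges from 13.2 to 53.6 CPM across libraries, while Spry2 stays between 80.7 and 90.4 CPM.

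Egr1 (ENSMUSG00000038418), a zinc finger transcription factor and a classic immediate early gene, varied most among the 10. In Control cells it stood at 33.4 and 28.9 CPM under DMSO and at 34.1 and 34.1 CPM under GANC. In the libraries labelled HSVTK DMSO it stood at 52.2 and 53.6 CPM, and in those labelled HSVTK GANC at 13.2 and 14.1 CPM. Thus the HSVTK groups lay on either side of both Control groups, and neither overlapped any Control library. Its group means spanned 1.95 on the log2 scale, above 98.5% of the 13463 genes with a mean of at least 1 CPM, whose median span was 0.42. Between treatments Egr1 was 3.88-fold lower in HSVTK cells (log2 fold change -1.95 ± 0.09 SE, adjusted p = 4.23e-15). In Control cells the same contrast gave 0.13 ± 0.09 (adjusted p = 0.433). The difference between both responses was -2.09 ± 0.13 (adjusted p = 1.49e-12), so it passed the test itself. HSVTK cells had 1.70-fold more Egr1 than Control cells under DMSO (0.76 ± 0.09, adjusted p = 7.65e-08) and 2.50-fold less under GANC (-1.32 ± 0.10, adjusted p = 1.9e-11). The contrasts share libraries: HSVTK DMSO enters the drug contrast and the cell contrast under DMSO. Summed embryonic stem cell markers were also highest in HSVTK DMSO, at 6902 to 6995 CPM against 6065 to 6176 in HSVTK GANC. Unlike Egr1 they were lowest in Control DMSO (5596 to 5656 CPM), and Control GANC (5904 to 6219) overlapped HSVTK GANC. In HSVTK cells Tdgf1 alone had means of 1304 CPM under DMSO and 813 under GANC. Pou5f1 (633 and 688) and Nanog (628 and 639) did not fall. The part of these markers in the Egr1 values was not tested.

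By the fixed rule of likeness, the profile closest to that of Egr1 over the 8 libraries belonged to Gpc3, which encodes a cell surface proteoglycan. Its centred log2 CPM differed from that of Egr1 by 0.10 (root mean square), and Gpc3 changed by -1.82 in HSVTK cells and 0.13 in Control cells. Next among 9694 candidate genes came Ldhb, a subunit of lactate dehydrogenase, at 0.19 and Lef1, a transcription factor of the WNT pathway, at 0.20. Lef1 changed by -2.04 in HSVTK cells and 0.62 in Control cells.

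Fos (ENSMUSG00000021250), the AP-1 subunit whose window is shown above, was barely detected, with 41 to 116 counts per library. It stood at 2.22 and 3.08 CPM in Control DMSO and at 3.45 and 2.42 CPM in Control GANC. In HSVTK cells it stood at 2.59 and 2.39 CPM under DMSO and at 1.97 and 1.23 CPM under GANC. The HSVTK GANC libraries were the lowest of all 8 and did not overlap another group. Its log2 fold change was -0.64 ± 0.29 between treatments in HSVTK cells (adjusted p = 0.0937) and 0.16 ± 0.27 in Control cells (adjusted p = 0.801). Without HSVTK GANC replicate 1 the first value became -1.03 (adjusted p = 0.043). Under GANC, Fos was lower in HSVTK than in Control cells, at -0.89 ± 0.28 (adjusted p = 0.02). DESeq2 did not make that call (adjusted p = 0.0678), nor did limma, and it also went when replicate 1 of Control GANC (0.199) or replicate 2 of HSVTK GANC (0.246) was left out. The response of Fos did not pass the test of a difference between the cells (-0.80 ± 0.39, adjusted p = 0.138), and no difference was detectable at this depth.

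Ier3 (ENSMUSG00000003541), an early response gene tied to cell survival, scattered widely between replicates. HSVTK libraries gave 4.95 and 4.82 CPM under DMSO and 5.36 and 6.79 under GANC. Control libraries gave 8.0 and 4.85 CPM under DMSO and 6.84 and 9.45 under GANC. Its log2 fold changes between treatments were 0.32 ± 0.20 in HSVTK cells and 0.33 ± 0.19 in Control cells (adjusted p = 0.267 and 0.339). It passed in none of the 5 comparisons, though leaving out Control DMSO replicate 2 gave -0.71 between the cells under DMSO (adjusted p = 0.00985), and leaving out Control GANC replicate 1 gave -0.66 under GANC (adjusted p = 0.02).

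Myc (ENSMUSG00000022346) moved the other way from Egr1 in HSVTK cells. It stood at 69.0 and 66.1 CPM in HSVTK DMSO and at 85.2 and 79.5 CPM in HSVTK GANC, without overlap. Control libraries lay between, at 75.2 and 70.2 CPM under DMSO and at 75.2 and 79.3 CPM under GANC. The rise in HSVTK cells was 0.29 ± 0.07 (adjusted p = 0.00304). This call failed when replicate 2 of the DMSO libraries (0.0772) or replicate 1 of the GANC libraries (0.0622) was left out. The change in Control cells was 0.09 ± 0.07 (adjusted p = 0.526), and the difference between responses, 0.20 ± 0.10, did not pass (adjusted p = 0.154). Its family member Mycn fell by 0.57 on the log2 scale in HSVTK cells (134 ± 7.27 to 90.4 ± 5.66 CPM (SD, n = 2), adjusted p = 3.44e-07). Per length, Mycn stood at 40.7 FPKM and Myc at 24.9 in HSVTK DMSO, and at 28.1 and 31.1 in HSVTK GANC, so that the order of the pair turned.

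The Sprouty genes parted. Spry4 (ENSMUSG00000024427), an inhibitor acting between receptor and RAF, was set apart by 1 group. It stood at 254 and 259 CPM in HSVTK DMSO, while the other 6 libraries lay between 196 and 213 CPM. Spry4 was 1.30-fold higher in HSVTK than in Control cells under DMSO (0.38 ± 0.06, adjusted p = 7.38e-06). In HSVTK cells it was lower under GANC, at -0.31 ± 0.06 (adjusted p = 0.000175), against 0.07 ± 0.06 in Control cells (adjusted p = 0.513). The difference between responses passed (-0.38 ± 0.08, adjusted p = 0.000899), and under GANC the cells differed by -0.00 ± 0.06 (adjusted p = 0.975). Spry2 (ENSMUSG00000022114), whose window is shown above, stayed between 80.7 and 90.4 CPM in all libraries. Its group means spanned 0.10 on the log2 scale, a span above only 2.64% of genes, and no comparison passed. For GANC in HSVTK cells the value was -0.06 ± 0.07.

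The 2 phosphatases also differed. Dusp4 (ENSMUSG00000031530), a nuclear phosphatase of ERK and related kinases, was highest in Control DMSO at 13.6 and 13.0 CPM. With GANC these cells had 8.98 and 10.2 CPM. HSVTK libraries had 9.53 and 7.80 CPM under DMSO and 6.34 and 6.64 under GANC. Libraries of each cell type did not overlap between treatments, and those of HSVTK DMSO overlapped with Control GANC. Dusp4 was lower under GANC, at -0.42 ± 0.14 in HSVTK cells and -0.47 ± 0.14 in Control cells (adjusted p = 0.0306 and 0.0295), and the responses differed by 0.05 ± 0.20 (adjusted p = 0.880). Both calls rest on the choice of tool, since DESeq2 gave 0.0832 and 0.0649, and limma passed neither. In HSVTK cells the adjusted p was 0.318 without DMSO replicate 1, 0.138 without GANC replicate 1 and 0.0793 without GANC replicate 2. In Control cells it was 0.185 and 0.119 without DMSO replicate 1 or 2 and 0.175 without GANC replicate 1. Between the cells Dusp4 was lower in HSVTK, at -0.62 ± 0.14 under DMSO (adjusted p = 0.00069) and -0.56 ± 0.14 under GANC (adjusted p = 0.00382, and 0.0662 with limma without a filter). The profiles most like it were those of Fstl1, Tesk2 and Ripply1, with root mean square differences of 0.11, 0.11 and 0.12 on the log2 scale.

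Dusp6 (ENSMUSG00000019960), a cytoplasmic phosphatase that prefers ERK, differed between the cells under both treatments and did not pass the test of the drug in either. It stood at 66.2 and 62.7 CPM in Control DMSO and at 59.7 and 60.5 in Control GANC. In HSVTK cells it stood at 79.4 and 76.5 CPM under DMSO and at 81.9 and 82.2 under GANC. All 4 HSVTK libraries exceeded all 4 Control libraries. Dusp6 was higher in HSVTK cells by 0.27 ± 0.07 under DMSO (adjusted p = 0.00288) and by 0.45 ± 0.07 under GANC (adjusted p = 1.47e-05). The first call failed when replicate 2 of Control DMSO (0.0647) or replicate 1 of HSVTK DMSO (0.051) was left out. Between treatments the values were 0.07 ± 0.07 in HSVTK cells (adjusted p = 0.459) and -0.10 ± 0.07 in Control cells (adjusted p = 0.431).

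Etv4 (ENSMUSG00000017724) was higher with the drug in both cells and higher in HSVTK cells with either treatment. Control libraries had 109 and 104 CPM under DMSO and 120 and 134 under GANC. HSVTK libraries had 137 and 136 CPM under DMSO and 167 and 159 under GANC. No 2 groups overlapped, and their levels rose in the order just given. The drug contrast gave 0.26 ± 0.06 in HSVTK cells (adjusted p = 0.00328) and 0.25 ± 0.07 in Control cells (adjusted p = 0.0166), with a difference of 0.01 ± 0.09 (adjusted p = 0.972). Leaving out DMSO replicate 1 (0.0506), DMSO replicate 2 (0.0606) or GANC replicate 1 (0.0574) ended the call in HSVTK cells. That in Control cells ended with limma (0.0615 to 0.151) and when DMSO replicate 1 (0.0662), DMSO replicate 2 (0.202) or GANC replicate 2 (0.179) was left out. HSVTK cells exceeded Control cells by 0.35 ± 0.07 under DMSO and 0.36 ± 0.07 under GANC (adjusted p = 9.84e-05 and 0.000116).

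Etv5 (ENSMUSG00000013089) shared with its relative only the call for GANC in Control cells. Control libraries had 439 and 432 CPM under DMSO and 473 and 515 under GANC. HSVTK libraries had 426 and 419 CPM under DMSO and 410 and 392 under GANC. Control GANC was thus highest and HSVTK GANC lowest, without overlap. Etv5 rose with the drug in Control cells by 0.18 ± 0.06 (adjusted p = 0.0402), a call lost in 10 of the 17 other settings, among them the fit with a replicate block (0.0578) and the fit on the 4 Control libraries alone (0.0846). Leaving out replicate 1 (0.177) or 2 (0.267) of Control DMSO, replicate 2 of Control GANC (0.284), or replicate 1 (0.0776) or 2 (0.0765) of HSVTK DMSO also ended it. In HSVTK cells the value was -0.08 ± 0.06 (adjusted p = 0.329). The responses differed by -0.26 ± 0.08 (adjusted p = 0.0151). That value rose to 0.0628 when replicate 2 of Control DMSO was left out, to 0.0659 for replicate 1 of HSVTK DMSO, and to 0.0971 with limma without a filter. Under GANC Etv5 was lower in HSVTK than in Control cells, at -0.30 ± 0.06 (adjusted p = 0.000142).

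**Figure D2:**
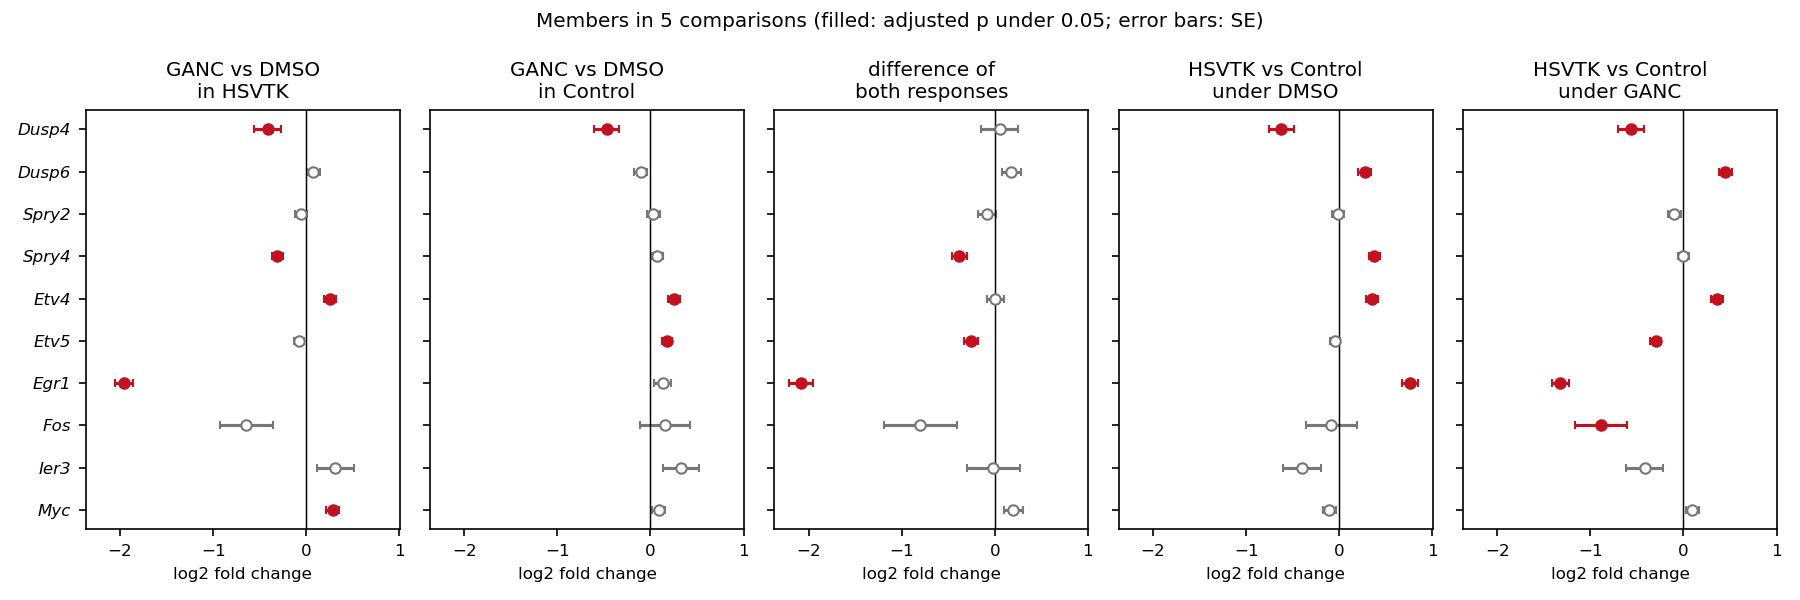
Log2 fold change of each of the 10 genes in the 5 comparisons, with bars of 1 standard error and filled points for an adjusted p below 0.05. Egr1 reaches -1.95 for GANC in HSVTK cells, and Spry2 stays within 0.10 of 0 in every comparison.

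Counted together, 2 of the 10 genes rose (Etv4, Myc) and 3 fell (Egr1, Dusp4, Spry4) with GANC in HSVTK cells. Of all tested genes 13.3% rose and 15.2% fell in that contrast, or 28.5% in all. The members' median log2 fold change was -0.07 and that of all tested genes 0.01. In Control cells 2 rose (Etv4, Etv5) and 1 fell (Dusp4), where 4.73% of all genes rose and 3.35% fell, or 8.08% in all. The medians there were 0.11 for the members and -0.00 for all genes. The responses differed for 3 members, each more negative in HSVTK cells (Egr1, Spry4, Etv5), against 14% of all genes in that direction, 11.6% in the other and 25.6% in all.

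Between the cells under DMSO 4 members were higher in HSVTK (Egr1, Dusp6, Spry4, Etv4) and 1 was lower (Dusp4). Of all genes 16.4% were higher and 17.3% lower, or 33.7% in all. Under GANC 2 members were higher (Dusp6, Etv4) and 4 lower (Egr1, Fos, Dusp4, Etv5), against 11.1% and 14.9% of all genes, or 26.1% in all. Libraries did not overlap between treatments for 9 members in HSVTK cells (64.2% of all genes) and 6 in Control cells (49.5%). Between the cells they did not overlap for 7 members under DMSO (67.3%) and 9 under GANC (59.6%). Members with the same role did not always share their calls. Spry4 was called in 3 comparisons and Spry2 in none, and Dusp4 and Dusp6 were called in opposite directions between the cells. Etv4 and Etv5 were both called higher with GANC in Control cells, but in opposite directions between the cells under GANC. The comparisons use overlapping sets of libraries, so these counts are not independent.

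**Figure D3:**
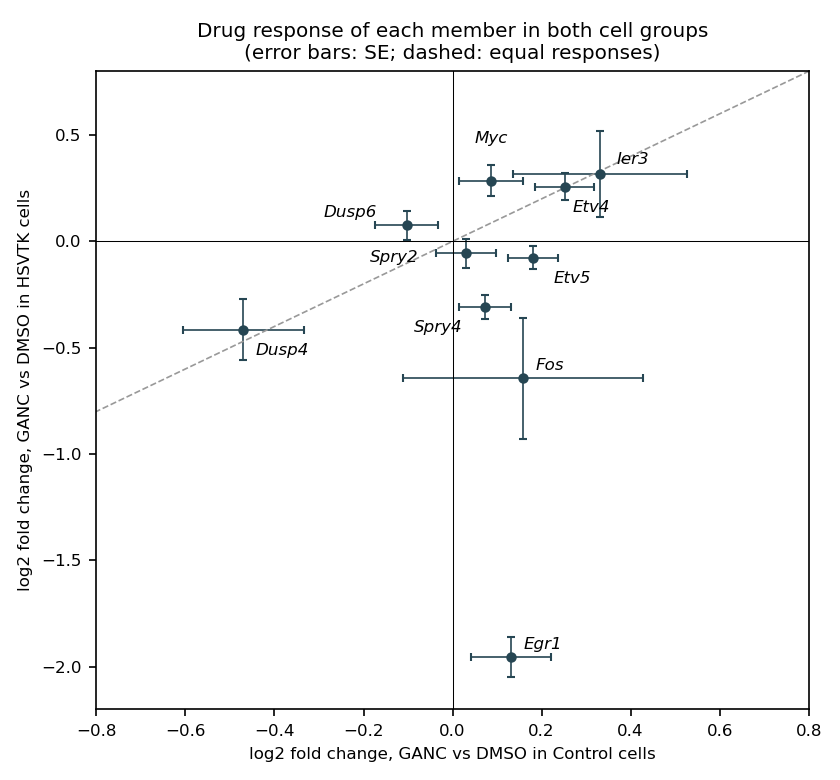
Log2 fold change for GANC against DMSO in Control cells (x axis) and in HSVTK cells (y axis) for the 10 genes, with bars of 1 standard error and a line of equal response. Egr1 lies far below the line at 0.13 and -1.95, and Etv4 and Dusp4 lie close to it.

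The wider pathway was read from 6 further gene lists. Among ligands and receptors of the FGF family, 3 of 17 tested genes rose and 5 fell with GANC in HSVTK cells, where 13.3% of all tested genes rose and 15.2% fell. Fgfr2, a receptor, fell by 1.12 on the log2 scale (9.12 ± 1.18 to 4.2 ± 0.0662 CPM (SD, n = 2), adjusted p = 8.47e-07) and Fgfrl1, a receptor without a kinase domain, by 0.61, while the ligand Fgf18 rose by 0.70. The call on Fgfrl1 ended in the 3 limma fits (adjusted p = 0.0535 to 0.119) and when replicate 1 of HSVTK DMSO (0.111) or replicate 2 of HSVTK GANC (0.116) was left out. The call on Fgf18 ended with limma without a filter (0.0557) and when replicate 2 of either HSVTK group was left out (adjusted p = 0.056 for DMSO and 0.113 for GANC). Fgf4, the ligand these cells make themselves, gave 0.12 (adjusted p = 0.146), and the receptor Fgfr1 gave -0.18 (adjusted p = 0.0712). In Control cells edgeR called 0 of the 17, with 1 at an unadjusted p below 0.05, and DESeq2 and limma also called 0. Under DMSO 5 were higher and 5 lower in HSVTK than in Control cells (16.4% and 17.3% of all genes), with Fgf18 at -1.58, Fgf17 at -0.96 and Fgf4 at 0.28 (adjusted p = 0.000575).

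In the core from adaptor to kinase, 2 of 26 genes rose and 5 fell with GANC in HSVTK cells, a count near the 28.5% called over all genes. Mapk3, which encodes ERK1, fell by 0.48 on the log2 scale (118 ± 0.657 to 84.4 ± 4.43 CPM (SD, n = 2), adjusted p = 2.47e-06). Rps6ka2, a kinase downstream of ERK, fell by 0.41, while the adaptor Gab1 rose by 0.24, a call that ended when replicate 2 of HSVTK DMSO was left out (adjusted p = 0.0765). In Control cells 4 rose and 0 fell, where 8.08% of all genes were called, among them Rps6ka2 (0.36) and the adaptor Grb2 (0.31). The responses differed for Mapk3 (-0.65) and Rps6ka2 (-0.78), within 1 more positive and 7 more negative genes of the list (11.6% and 14% of all genes).

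Other negative regulators gave 2 genes higher and 3 lower of 17 in HSVTK cells, again near the 28.5% over all genes. Spry1 rose by 0.66, and the phosphatases Dusp5 and Dusp9 fell by 0.63 and 0.38. Without replicate 2 of HSVTK DMSO the value of Dusp5 was -0.41 (adjusted p = 0.166). In Control cells 4 rose and 0 fell, against 4.73% and 3.35% of all genes, with Spry1 at 0.57 and Dusp9 at 0.50. Dusp9 was 0.87 higher in HSVTK than in Control cells under DMSO, and its responses differed by -0.88. Lrig1, which restrains receptor tyrosine kinases, fell by 0.85 in HSVTK cells. Limma without a filter made none of the calls in HSVTK cells on Dusp5 (adjusted p = 0.0995), Dusp9 (0.12) and Lrig1 (0.0552).

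Of 19 further ETS, SRF and CIC factors 3 rose and 3 fell in HSVTK cells, also near the 28.5% over all genes. Srf, the factor that binds CArG boxes in promoters of immediate early genes, had group means in the same order as Egr1. In HSVTK cells it stood at 58.3 ± 0.614 CPM under DMSO and 35.9 ± 1.04 under GANC, and in Control cells at 40.6 ± 0.376 and 46.6 ± 6.14 (SD, n = 2). It fell by 0.70 in HSVTK cells (adjusted p = 4.08e-07), and its responses differed by -0.90. In Control cells 3 of the 19 rose and 1 fell, against 8.08% of all genes in either direction.

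Of 32 further immediate early genes 8 rose and 13 fell in HSVTK cells (13.3% and 15.2% of all genes), with a median of -0.28 against 0.01 for all genes. The AP-1 partner Jun gave -0.58 (adjusted p = 0.0856). Klf6 fell by 0.77, the kinase gene Pim1 by 0.71 and the small MAF factor Maff by 1.16, whereas the orphan receptor Nr4a1 rose by 0.83 (23.7 ± 1.17 to 42.1 ± 2.1 CPM (SD, n = 2), adjusted p = 4.81e-08). In Control cells 3 rose and 2 fell (4.73% and 3.35% of all genes), with Ccn1 at -0.69 and Ccn2 at -0.60. Both were lower under GANC in HSVTK cells too, with Ccn1 at 13.6 CPM under DMSO and 7.44 under GANC, and Ccn2 at 36.3 and 24.3. Of 12 MYC network genes 1 rose and 4 fell in HSVTK cells, against 28.5% of all genes in either direction, with Mycn already described and Mxi1, which opposes MYC, at -0.36. The calls named in Control cells were each lost in at least 1 other setting.

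**Figure D4:**
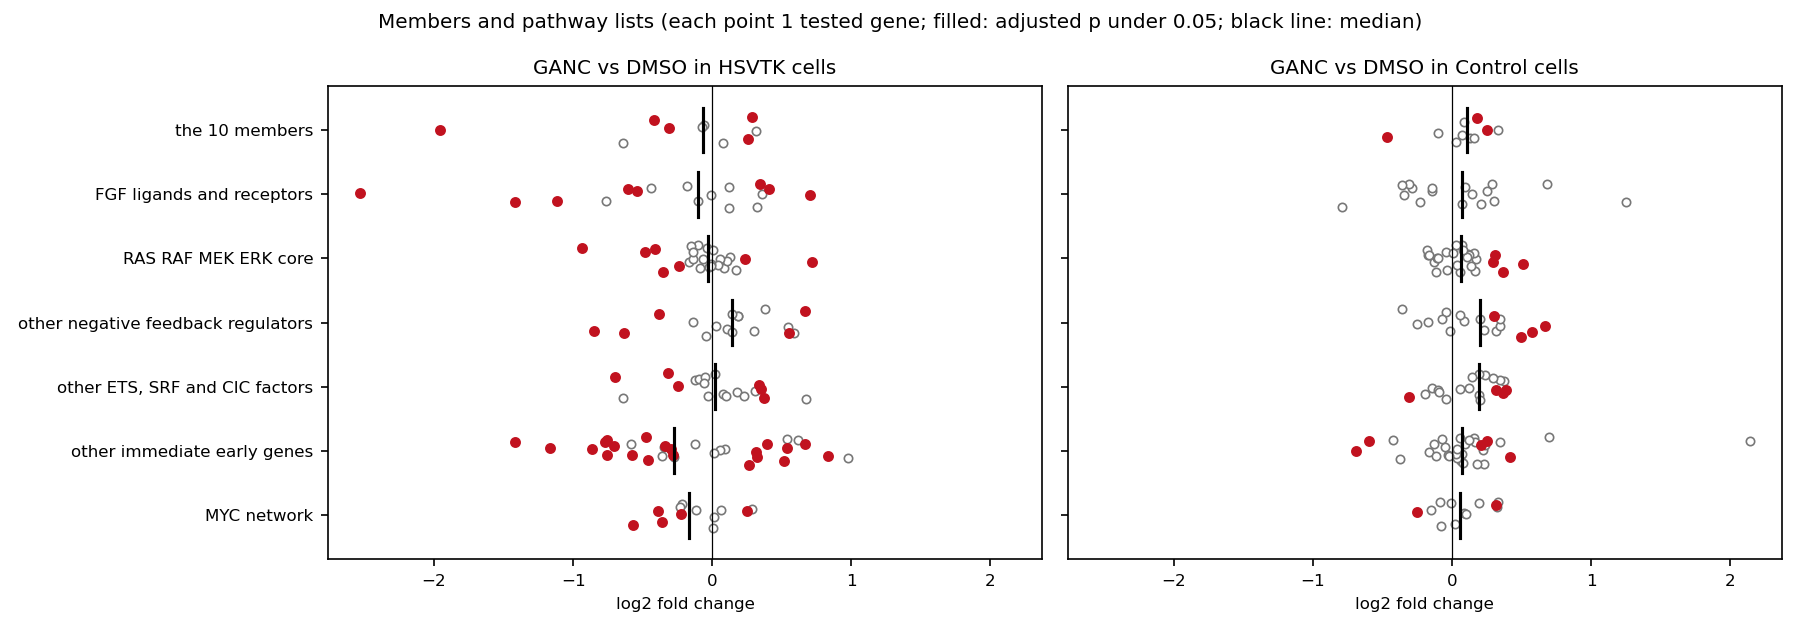
Log2 fold change for GANC against DMSO in HSVTK cells (left) and in Control cells (right) of the 10 genes and of 6 pathway lists, with 1 point a tested gene, filled at an adjusted p below 0.05, and a black line at each median. Among the other immediate early genes 13 of 32 were lower and 8 higher in HSVTK cells, against 2 and 3 in Control cells.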

How the data were processed

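RNA sequencing covered 8 libraries of mouse embryonic stem cells, grouped by cell and treatment as labelled. Per the labels, total RNA came from a phenol and chloroform extraction and went into the VAHTS Universal V6 library kit. The build GRCm39 and the tools DESeq2 1.40.2, featureCounts 2.0.1, HISAT2 2.1.0 and fastp 0.23.2 are listed, without roles or parameters, in the submitters' processing notes. The annotation release, strandedness and handling of multiply matching reads are not stated in these sources. Raw counts per gene, not normalized, and FPKM were deposited by the authors. All 456080 FPKM values equal counts divided by gene length and assigned counts, within 1e-05.

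Tests were edgeR 4.0.16 quasi-likelihood F tests (R 4.3.3) on these counts with TMM scaling, filterByExpr and a mean per group over all 8 libraries, with 4 residual degrees of freedom. P-values were adjusted over 17976 genes (Benjamini-Hochberg), with calls below 0.05. The 5 comparisons were GANC against DMSO in each cell, the difference of these responses, and HSVTK against Control under each treatment. Standard errors are the log2 fold change over the root of F. CPM is scaled with TMM factors, and FPKM serves comparisons between genes. On simulated counts for GANC in HSVTK cells 200 of 17976 genes were changed. The test recovered 38% of genes changed 1.25-fold, 64% at 1.5-fold, 96% at 2-fold and 98% at 3-fold. In the data 5119 genes were called in that contrast, so these rates are not those of the data.

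The members and lists were chosen with earlier results of these data known. All 10 members are reported. From each pathway list the rule took up to 4 called genes of lowest adjusted p for GANC in HSVTK cells and up to 3 in each other comparison, with a mean of at least 1 CPM, and always allowed, among others, Mapk3, Fgf4, Fgfr1, Mycn, Jun and Spry1. Some eligible genes are left unnamed or not reported here. Similar profiles were sought among genes of at least 5 CPM, for members whose group means span at least 1 on the log2 scale. Alternatives were DESeq2 1.42.0, limma 3.58.1 on log2(FPKM + 1) or log2(FPKM + 0.1), other scaling, no filter, fewer libraries and a replicate block. Promoter windows came from RefSeq, and those of 5 members were read.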

Additional observations from a re-analysis of the deposited data

Results flagged for a closer look

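The response to GANC differed between HSVTK and Control cells for 3 of the 10 genes by edgeR's test of the difference itself. The difference on the log2 scale, HSVTK minus Control, was -2.09 for Egr1, -0.38 for Spry4 and -0.26 for Etv5. For Egr1 and Spry4 the HSVTK value was the negative one (-1.95 and -0.31) and the Control values were 0.13 and 0.07. For Etv5 the Control value was the one that passed (0.18), with -0.08 in HSVTK cells. Groups of 2 libraries are too small for a check of single outlying libraries.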

How the results depend on the processing

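Of 22 calls on the 10 genes, 12 held in every setting, 10 were lost in at least 1, and 0 changed direction. Those held include every call on Egr1 and Spry4. Genes called in Control cells numbered 1453, against 942 from the 4 Control libraries alone, and 190, 251 and 29 with limma on log2(FPKM + 1), on log2(FPKM + 0.1) and without a filter. In those 3 limma fits 0 of the 10 genes were called in Control cells, with 3 at an unadjusted p below 0.05, and DESeq2 called 2. Limma without a filter called 2615 genes for GANC in HSVTK cells, 1981 for the difference of responses, 3652 between cells under DMSO and 2288 under GANC. Leaving out 1 library at a time gave 3313 to 5627, 433 to 2010, 3415 to 4638, 4399 to 6560 and 2999 to 4497 genes in the order HSVTK, Control, difference, DMSO and GANC. The members called were 3 to 5, 0 to 3, 2 to 3, 4 to 5 and 5 to 6. With library size scaling the share of calls that were higher was 54.3% for GANC in HSVTK cells, against 46.7%. For HSVTK against Control cells it was 53.4% under DMSO, against 48.8%, and 54.1% under GANC, against 42.8%. RLE scaling gave 47.1%, 49.1% and 43.7% in the same order, and limma on log2(FPKM + 1) gave 54.7%, 54.0% and 56.0%. The balance of higher and lower calls over all genes thus turned with library size scaling and with FPKM, and not with RLE scaling.

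Signs changed only for 8 of the 28 uncalled values. With library size scaling Ier3 gave 0.0086 for the difference of responses, Spry2 0.016 under DMSO and Spry4 0.048 under GANC. Spry4 gave 8.47e-05 with RLE scaling and 0.0462, 0.0471 and 0.0462 with the 3 limma fits, Spry2 gave 0.0158, 0.0162 and 0.0158 with these, and Etv4 gave -0.013 for the difference without a filter. Leaving out libraries gave ranges of -0.44 to 0.27 for Ier3, -0.095 to 0.076 for Etv4 and -0.10 to 0.19 for Dusp4 (differences of responses), -0.11 to 0.42 for Fos in Control cells, -0.30 to 0.17 for Fos, -0.71 to 0.0104 for Ier3 and -0.0298 to 0.018 for Spry2 under DMSO, and -0.057 to 0.029 for Spry4 under GANC. The cause was not tested.

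Replicate numbers did not pair the samples: deviations from group means correlated at -0.156 to 0.093 between groups. With the replicate block 4932, 1339, 4433, 5882 and 4517 genes and 5, 2, 3, 5 and 6 of the 10 genes were called. The call on Etv5 in Control cells was lost (adjusted p = 0.0578) and no other. In simulated counts with 2 libraries a group, 64% of genes changed 1.5-fold were recovered. Only 200 of 17976 genes were changed there, against 5119 called for GANC in HSVTK cells, so that rate is not the one of these data. Fos had 41 to 116 counts per library and Ier3 142 to 285, and Ier3 scattered between replicates, with 260 and 142 counts in Control DMSO. The part of low counts in their values was not tested.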

Other observations

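Under DMSO the other immediate early genes divided between the cells in both directions: 12 of 32 tested genes were higher in HSVTK than in Control cells and 7 lower, against 16.4% and 17.3% of all genes. The 3 of lowest adjusted p were all among the 7 lower. They were Btg2, an antiproliferative gene, at -0.85, Tob1, of the same family, at -0.74, and the kinase gene Sgk1 at -0.72. In the other direction, mean levels in HSVTK DMSO exceeded those in Control DMSO for Maff (10.3 against 5.19 CPM) and Klf6 (50.5 against 42.1). Egr1, a member and not 1 of the 32, was higher by 0.76. Under GANC 2 of the 32 were higher and 11 lower (11.1% and 14.9% of all genes), with Pim1 at -0.75, Klf10 at -0.72 and Sgk1 at -0.35. The MYC network gave 3 higher and 3 lower of 12 under DMSO and 0 higher and 4 lower under GANC, where 33.7% and 26.1% of all genes were called. Mycn was lower in HSVTK cells with either treatment, at -0.38 under DMSO and -0.97 under GANC, and Mxd1, which opposes MYC, at -1.24 and -0.81. The call on Mxd1 under GANC was lost with limma on log2(FPKM + 0.1) (adjusted p = 0.0678) and without a filter (0.172).

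The summed CPM of the 10 genes varied little between groups, at 1001 to 1035 in Control DMSO, 1073 to 1148 in Control GANC, 1114 to 1120 in HSVTK DMSO and 1023 to 1072 in HSVTK GANC. Etv5 alone gave 392 to 515 of these, so the sum mostly follows the abundant genes and carries little of Egr1.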
